A study of Mus musculus with 6 samples.

Results

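The CC chemokine ligands examined here were Ccl2, Ccl3, Ccl4, Ccl5, Ccl6, Ccl7, Ccl8, Ccl9 and Ccl12, chosen by gene symbol, and all 9 had a row among the 33000 genes of the count table. They were compared in frontal cortex of 3 mice homozygous for GFAP-IL6 and 3 wild-type (WT) animals, all C57BL/6 and 3 months old, with an mRNA TruSeq library from each mouse. The GFAP-IL6 transgene expresses the cytokine IL6 from astrocytes, under the promoter of Gfap. No other allele, agent or treatment was given for either group, and the sources used here give neither the sex nor the litter of the mice. Whole tissue was sequenced, so a change in the number of cells that express a gene and a change of its RNA within cells cannot be told apart.

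CC chemokines are small secreted proteins with adjacent cysteines near the amino terminus. They bind G protein-coupled receptors of the CCR family and draw monocytes, macrophages, T cells and other leukocytes along a gradient. In the brain, microglia, border macrophages, astrocytes and endothelial cells can all release them during inflammation, and IL6, acting through STAT3, is among the cytokines that can alter their expression. Ccl2, Ccl7, Ccl8 and Ccl12 are the monocyte chemoattractant proteins, of which Ccl2, Ccl7 and Ccl12 signal mainly through Ccr2. Ccl3 and Ccl4 are macrophage inflammatory proteins, and Ccl3 and Ccl5 bind Ccr1. Ccl6 and Ccl9 are rodent ligands of Ccr1.

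All 9 genes lie on chromosome 11 of GRCm38, in 2 stretches separated by 1409 kb. The first stretch holds Ccl2 (82035571 to 82037453), Ccl7 (82045712 to 82047525), Ccl12 (82101845 to 82103400) and Ccl8 (82115185 to 82116799), all on the plus strand. The second holds Ccl5 (83525778 to 83530518), Ccl9 (83572919 to 83578636), Ccl6 (83587882 to 83593087) and Ccl3 (83647844 to 83649355) on the minus strand and Ccl4 (83662584 to 83664683) on the plus strand. Ccl12 and Ccl8 are neighbours, with 11.78 kb between them. None of the 9 had an exon base within an exon of another annotated gene on either strand. None of their 75-base stretches occurred in a transcript of another gene, so reads of that length without mismatches could be told apart among these paralogs (the read length of these libraries is not given in the sources used here). The longest exact run shared by any pair of them was 25 bases, for Ccl6 and Ccl9, and Ccl12 shared at most 17 bases with another member, Ccl2.

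The sequences around the transcription starts of Ccl12 and Ccl8 are shown because these genes are neighbours and had the highest levels per length among the 9 in GFAP-IL6 mice. That of Ccl9 is shown for comparison, as its level was about the same in both groups. Each runs from 250 bases before to 50 bases after the start on the strand of the gene (RefSeq, GRCm38.p6), at chr11:82101595-82101894 for Ccl12, chr11:82114935-82115234 for Ccl8 and chr11:83578587-83578886 for Ccl9. Capitals mark TATAAA and, in Ccl9, an AP-1 match.
Ccl12: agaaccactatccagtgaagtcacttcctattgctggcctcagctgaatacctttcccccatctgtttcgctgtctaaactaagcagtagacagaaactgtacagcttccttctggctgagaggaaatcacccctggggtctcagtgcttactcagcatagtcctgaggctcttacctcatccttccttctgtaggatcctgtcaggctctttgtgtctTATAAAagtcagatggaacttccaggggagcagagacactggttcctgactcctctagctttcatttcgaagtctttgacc
Ccl8: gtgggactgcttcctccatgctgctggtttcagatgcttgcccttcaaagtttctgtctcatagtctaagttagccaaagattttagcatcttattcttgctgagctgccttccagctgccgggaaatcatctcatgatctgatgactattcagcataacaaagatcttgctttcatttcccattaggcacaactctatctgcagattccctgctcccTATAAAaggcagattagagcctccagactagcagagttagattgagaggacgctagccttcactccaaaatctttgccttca
Ccl9: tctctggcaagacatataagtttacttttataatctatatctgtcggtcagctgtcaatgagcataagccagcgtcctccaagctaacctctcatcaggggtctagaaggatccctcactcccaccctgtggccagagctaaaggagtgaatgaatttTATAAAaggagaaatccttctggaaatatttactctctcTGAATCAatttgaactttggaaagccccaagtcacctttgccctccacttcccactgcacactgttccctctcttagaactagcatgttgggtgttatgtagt

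TATAAA on the gene strand began at position -31 in Ccl12 and -32 in Ccl8, counted back from the start, and at -92 in Ccl9, and it occurred in 8.32% of 32851 promoters of the same length. It was added to the search after these sequences were seen. The other motifs were searched on both strands and did not overlap each other in these windows. The AP-1 letters TGANTCA occurred in Ccl9, at -53 to -47, and in 7.81% of all promoters. The STAT letters TTCNNNGAA (8.30% of all promoters), the NF-kB letters GGANTTTCC or GGANTTCCC (2.47%) and the C/EBP letters TTGCNNAA (10.8%) occurred in none of the 5 promoters given for these genes, which were those of Ccl3, Ccl6, Ccl8, Ccl9 and Ccl12. Ccl12 and Ccl8 were 54.9% identical over this window in a global alignment, and the other pairs among the 5 between 43.9% and 49.9%. Over their transcripts Ccl12 and Ccl8 were 62.3% identical, the highest of the 36 pairs of the 9 genes. These are letters in a window and do not show that a factor bound there.

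Library totals lay between 7559524 and 11072008 counts in GFAP-IL6 and between 11591066 and 16877001 in WT, so every WT library was deeper. A gene was treated as at the floor with 3 counts or fewer in a library, which came to between 0.179 and 0.396 CPM (counts-per-million, scaled for depth). As a check of the labels, Il6 had 0, 2 and 0 counts in the WT libraries against 12, 10 and 24 in those of GFAP-IL6 mice, in the order of the replicates. WT replicate 3 stood apart in markers of the choroid plexus, which summed to 615 CPM there and to between 4.61 and 59.5 CPM in the other libraries. Leaving this library out gave Ccl12 a log2 fold change of 4.88.

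Ccl12 was much higher in GFAP-IL6 mice and had the most counts of the 9 ligands there. It encodes a chemoattractant for monocytes. WT libraries held 3, 5 and 5 counts of Ccl12 and GFAP-IL6 libraries held 106, 58 and 77. Scaled for depth, its levels were 0.261, 0.298 and 0.313 CPM in WT and 9.49, 7.65 and 8.58 CPM in GFAP-IL6. The lowest GFAP-IL6 library was thus far above the highest WT library, and the libraries within each group were close to each other. With 3 to 5 counts, the WT libraries were at or near the floor, too low to measure the spread between mice. The ratio of summed counts, scaled for depth, was 29.6, with an exact 95% interval for counting error of 17.0 to 56.4. The means were 0.291 ± 0.027 CPM in WT and 8.57 ± 0.920 CPM in GFAP-IL6 (SD, n = 3 each). By edgeR the log2 fold change was 4.83 ± 0.27 (SE), with a 95% interval of 4.25 to 5.41 and an adjusted p of 1.4e-06. Across the 14 alternatives the log2 fold change lay between 4.73 and 4.92 and the adjusted p was at most 6.3e-05. As no WT library reached the cutoff of 0.882 CPM, Ccl12 passed the filter on low counts through the GFAP-IL6 libraries alone.

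Ccl8, which encodes another monocyte chemoattractant protein, was detected only in GFAP-IL6 libraries. It had 0 counts in each WT library and 12, 7 and 5 counts in GFAP-IL6. The level in GFAP-IL6 was 0.852 ± 0.266 CPM (SD, n = 3), at least 4.07-fold higher than WT with each WT library set to its floor of 3 counts. The groups did not overlap, and an exact permutation test (two-sided) gave p = 0.1, which is as low as 3 against 3 libraries can reach. With all libraries Ccl8 fell below the filter on low counts and was not tested. It passed when any WT library or GFAP-IL6 replicate 3 was left out, with adjusted p values by edgeR between 0.00421 and 0.0177, and without a filter the adjusted p was 4.2e-05. With a library left out it passed through the GFAP-IL6 libraries alone, as every WT count was 0, so these p values are given as a description.

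Ccl2, the monocyte chemoattractant best known in inflammation, was near the floor in both groups. It had 0, 3 and 0 counts in the WT libraries against 5, 3 and 2 in those of GFAP-IL6 mice. The ratio of the summed counts, scaled for depth, was 5.32, with an exact 95% interval of 1.37 to 30.1. This interval, like those of the other ratios of summed counts, covers counting error only and not the spread between mice. Each GFAP-IL6 library was above each WT library in CPM, with an exact permutation p of 0.1, but edgeR without a filter gave an adjusted p of 0.205. In raw counts the groups overlapped. Ccl7, which lies beside Ccl2, had 1, 2 and 1 counts in the WT libraries against 2, 1 and 1 in those of GFAP-IL6 mice. Both groups were under the floor, and a difference in Ccl7 was not detectable at this depth.

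**Figure D1:**
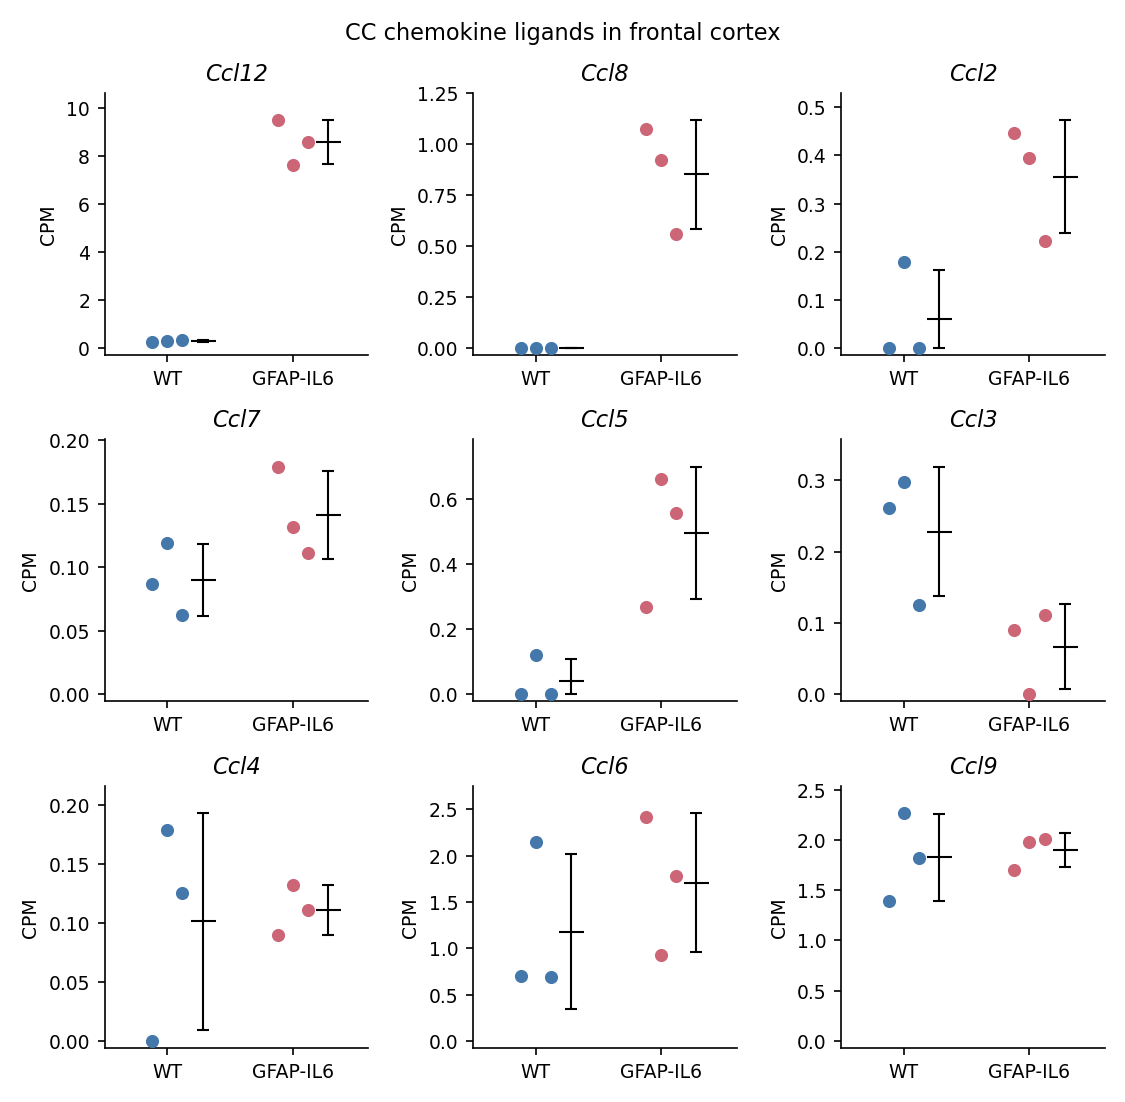
Level of each of the 9 CC chemokine ligands in CPM (vertical axes, each panel on its own scale from 0), with a point for each library, WT in blue and GFAP-IL6 in red, and the mean and SD over 3 mice in black, with SD bars ended at 0. Ccl12 was between 7.65 and 9.49 CPM in GFAP-IL6 and at most 0.313 CPM in WT, while Ccl6 and Ccl9 overlapped between the groups.

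Among Ccl3, Ccl4 and Ccl5, Ccl5 was higher in each GFAP-IL6 library and Ccl3 was lower, both at very low counts. Ccl5, which attracts T cells and monocytes, had 0, 2 and 0 counts in the WT libraries against 3, 5 and 5 in those of GFAP-IL6 mice. The ratio of its summed counts was 10.4 (exact 95% interval 2.35 to 94.6), and the exact permutation p was 0.1. It did not pass the filter, and without a filter edgeR gave an adjusted p of 0.0476. Ccl3 had 3, 5 and 2 counts in the WT libraries against 1, 0 and 1 in those of GFAP-IL6 mice. Its ratio was 0.319 with an interval of 0.034 to 1.497, the exact permutation p was 0.1, and without a filter the adjusted p by edgeR was 0.535. Ccl4, the close relative of Ccl3, had 0, 3 and 2 counts in WT and 1 count in each GFAP-IL6 library, so both groups were at or under the floor.

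Ccl6 and Ccl9, which are expressed by macrophages and microglia, were the most abundant of the 9 ligands per length in WT, with Ccl12 beside them. Ccl6 had 8, 36 and 11 counts in the WT libraries against 27, 7 and 16 in those of GFAP-IL6 mice, so that the groups overlapped and WT replicate 2 was far above the other WT mice. The means were 1.18 ± 0.838 CPM in WT and 1.71 ± 0.750 CPM in GFAP-IL6 (SD, n = 3 each). The log2 fold change was 0.53 ± 0.47 (SE), with a 95% interval of -0.48 to 1.55 and an adjusted p of 0.538 by edgeR. It was 1.35 without WT replicate 2 (adjusted p of 0.118) and 0.18 without GFAP-IL6 replicate 1 (adjusted p of 0.910).

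Ccl9 had 16, 38 and 29 counts in the WT libraries against 19, 15 and 18 in those of GFAP-IL6 mice. After scaling the levels were 1.82 ± 0.436 CPM in WT and 1.90 ± 0.169 CPM in GFAP-IL6 (SD, n = 3 each), and the GFAP-IL6 libraries lay inside the range of the WT libraries. The log2 fold change was 0.02 ± 0.28 (SE), with an interval of -0.59 to 0.63 and an adjusted p of 0.974 by edgeR. Its sign turned in 4 of the 14 alternatives, none of them past the threshold.

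Of the 9 ligands, 3 passed the filter on low counts and 1 of them, Ccl12, was called at an adjusted p under 0.05. As Ccl12 passed the filter through the GFAP-IL6 libraries alone, this count is given as a description. Over all 15341 genes tested, 2.86% were called, and 2.65% were called as higher in GFAP-IL6. An unadjusted p under 0.05 by edgeR was reached by 3139 of the 15341 genes. Without overlap between the groups in CPM, 4 of the 9 ligands were higher (Ccl12, Ccl8, Ccl5 and Ccl2) and 1 was lower (Ccl3). Ccl2 was apart only after scaling for depth. By the same rule, among 22621 genes that had any count, 11.0% were higher and 9.68% were lower. By position, 3 of the 4 ligands of the first stretch, Ccl2 among them, were higher without overlap in CPM. In the second stretch 1 of 5 was higher and 1 lower.

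Levels of different genes were compared per length, as TPM (transcripts-per-million), with the gene lengths of the table. In WT the order of mean levels began with Ccl6 (2.24 ± 1.53 TPM), Ccl9 (1.68 ± 0.353) and Ccl12 (1.503 ± 0.118), and neighbours among these 3 overlapped between libraries. Ccl3 followed at 0.826 ± 0.323 TPM, below every WT library of Ccl12. In WT, Ccl3 had 3, 5 and 2 counts and Ccl12 had 3, 5 and 5, at or near the floor. Their raw counts overlapped, so Ccl3 and Ccl12 were apart only per length. Ccl4, Ccl7, Ccl5 and Ccl2 were between 0.198 and 0.420 TPM on average and overlapped, and Ccl8 was at 0. In GFAP-IL6 mice Ccl12 stood first at 46.6 ± 5.44 TPM, with every library above all other ligands of the group. Ccl8 (4.87 ± 1.55 TPM), Ccl6 (3.47 ± 1.55), Ccl5 (2.71 ± 1.09) and Ccl9 (1.84 ± 0.148) came next, each overlapping its neighbour. Ccl2 had 1.28 ± 0.429 TPM (SD, n = 3 for all these values), and Ccl7, Ccl4 and Ccl3 were between 0.256 and 0.514 TPM on average.

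The summed TPM of the 9 ligands was 5.38, 10.9 and 5.85 in WT and 69.5, 56.3 and 60.4 in GFAP-IL6. Most of this sum was Ccl12 in GFAP-IL6 mice, with 75.04%, 73.3% and 77.0%, against 25.8%, 13.7% and 27.8% in WT. The share of Ccl8 was 0% in each WT library, and 8.93%, 9.29% and 5.26% in GFAP-IL6. In each WT library Ccl6 and Ccl9 together outweighed the other 7 ligands. The share of Ccl9 moved from between 18.6% and 28.8% in WT to between 2.403% and 3.39% in GFAP-IL6, while its own level did not differ beyond the spread.

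In raw counts, Ccl12 made up 9.68%, 5.32% and 10% of the counts of the 9 ligands in WT, with Wilson 95% intervals of 3.35% to 24.9%, 2.29% to 11.9% and 4.35% to 21.4%. In GFAP-IL6 it made up 60.2%, 59.8% and 61.1%, with intervals of 52.9% to 67.2%, 49.8% to 69.0% and 52.4% to 69.2%. The intervals of the groups were far apart and those within a group overlapped. They cover at best the counting error within a library, and not the spread between mice. Reads carried no molecular identifiers, so copies of the same molecule could not be told apart.

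**Figure D2:**
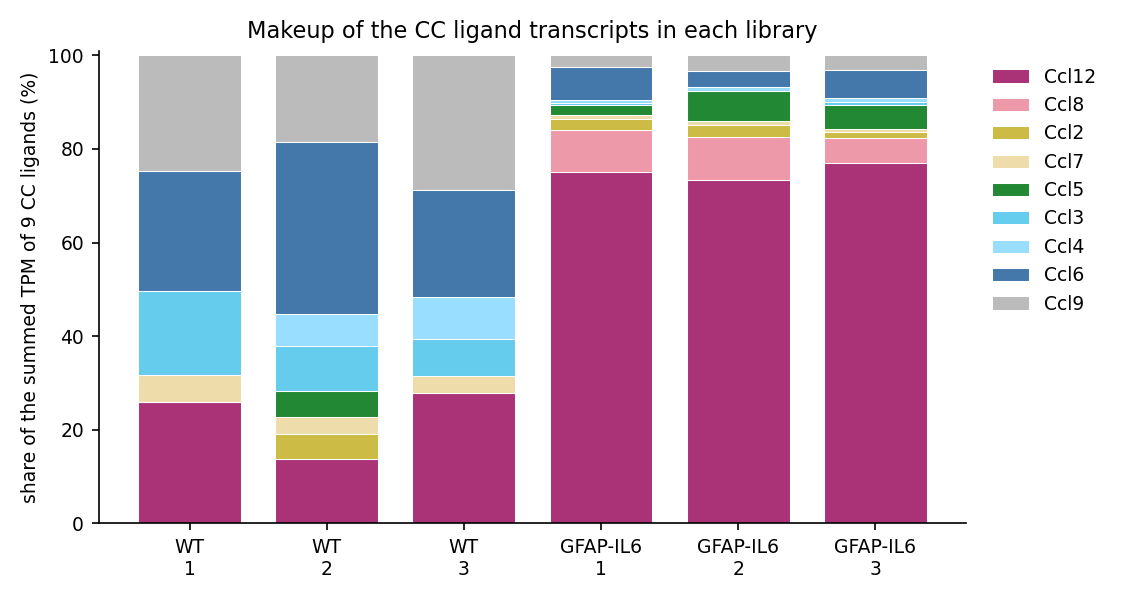
Share of each ligand in the summed TPM of the 9 CC chemokine ligands (vertical axis, percent), with a bar for each library and a colour for each gene. Ccl12 held between 73.3% and 77.0% in the GFAP-IL6 libraries and between 13.7% and 27.8% in the WT libraries.

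None of the remaining CC ligands was called. Of 15 listed, 14 had a row, 3 had 0 counts in all libraries (Ccl20, Ccl21b and Ccl27b), and 4 passed the filter. By edgeR 0 of these 4 were called, 1 had an unadjusted p under 0.05, and DESeq2 called 0. That gene was Ccl17, a ligand of Ccr4 made by dendritic cells, with 13, 19 and 17 counts in the WT libraries against 5, 4 and 7 in those of GFAP-IL6 mice. Its levels of 1.11 ± 0.038 CPM in WT and 0.585 ± 0.174 CPM in GFAP-IL6 (SD, n = 3 each) did not overlap. By edgeR its log2 fold change was -0.93 ± 0.37 (SE), at an unadjusted p of 0.027 and an adjusted p of 0.190, and Ccl17 had passed the filter through the WT libraries alone. Ccl27a, a ligand of Ccr10 known mainly from skin, was the most abundant CC ligand, with 50.7 ± 0.295 CPM in WT and 47.7 ± 1.67 CPM in GFAP-IL6 (SD, n = 3 each), lower without overlap, and a log2 fold change of -0.08 (95% interval -0.25 to 0.08). Its counts are uncertain, as 33.3% of its 75-base stretches occurred in transcripts of other genes. Ccl25 and Ccl28 had log2 fold changes of 0.08 and -0.32, with intervals of -0.52 to 0.68 and -0.85 to 0.20. The other CC ligands had at most 5 counts in any library.

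The 10 CC receptor genes reported here were all below the filter on low counts. Ccr2, the receptor of Ccl2, Ccl7 and Ccl12 on monocytes, had 2, 11 and 8 counts in the WT libraries against 14, 5 and 13 in those of GFAP-IL6 mice. Its ratio of summed counts was 2.43 (exact 95% interval 1.36 to 4.44, for counting error only). In CPM the lowest GFAP-IL6 library was only just above the highest WT library, and in raw counts the groups overlapped. Ccr1, a receptor of Ccl3, Ccl5, Ccl6 and Ccl9, had 3, 6 and 6 counts in the WT libraries against 9, 7 and 8 in those of GFAP-IL6 mice, a ratio of 2.55 (1.29 to 5.23). Both had an exact permutation p of 0.1, and without a filter edgeR gave adjusted p values of 0.128 for Ccr2 and 0.158 for Ccr1. Ccr9 had 9, 9 and 7 counts in the WT libraries against 9, 9 and 9 in those of GFAP-IL6 mice. Its groups were apart only after scaling for depth, with a ratio of 1.72 (0.963 to 3.10), and 18.8% of its exon bases overlap an exon of an antisense gene. Thus 3 of the 7 receptors with a count in any library were higher without overlap in CPM, where 11.0% of all genes with a count were. Ccr10 and Ccrl2 overlapped between groups, at ratios of 1.71 (0.769 to 3.82) and 1.16 (0.626 to 2.10). No library held more than 3 counts of Ccr6 or Ccr7, and Ccr3, Ccr4 and Ccr8 had 0 in all.

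The atypical receptors bind chemokines without G protein signalling and remove or carry them. Ackr1, Ackr2 and Ackr4 had log2 fold changes of 0.11 (95% interval -0.09 to 0.30), -0.11 (-0.69 to 0.48) and -0.03 (-0.46 to 0.40). By edgeR 0 of the 3 were called, 0 had an unadjusted p under 0.05, and DESeq2 called 0. Ackr1 was the most abundant of them, at 33.8 ± 2.72 CPM in WT and 36.4 ± 0.867 CPM in GFAP-IL6 (SD, n = 3 each), and the groups overlapped.

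**Figure D3:**
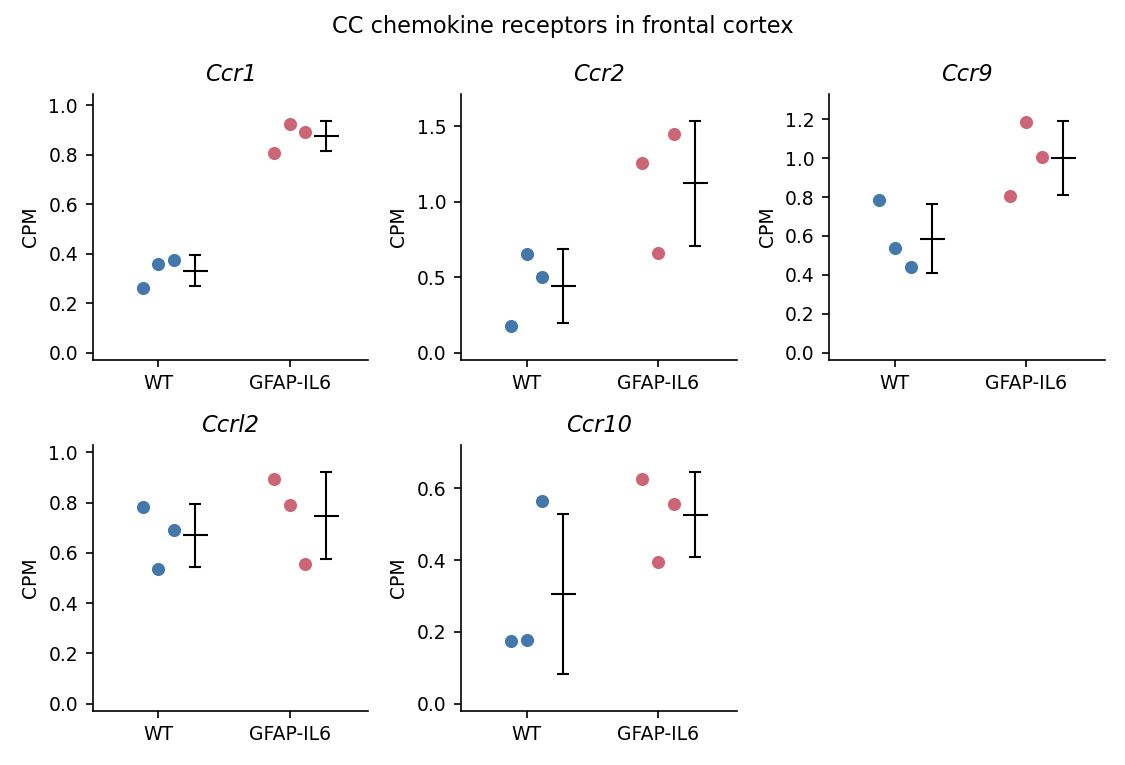
Level of 5 CC chemokine receptor genes in CPM (vertical axes, each panel on its own scale from 0), with a point for each library, WT in blue and GFAP-IL6 in red, and the mean and SD over 3 mice in black. In CPM, Ccr1, Ccr2 and Ccr9 were higher in GFAP-IL6 without overlap, Ccr2 by the narrowest gap. The raw counts of Ccr2 and Ccr9 overlapped between the groups, and no library of the 5 genes was above 1.45 CPM.

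**Figure D4:**
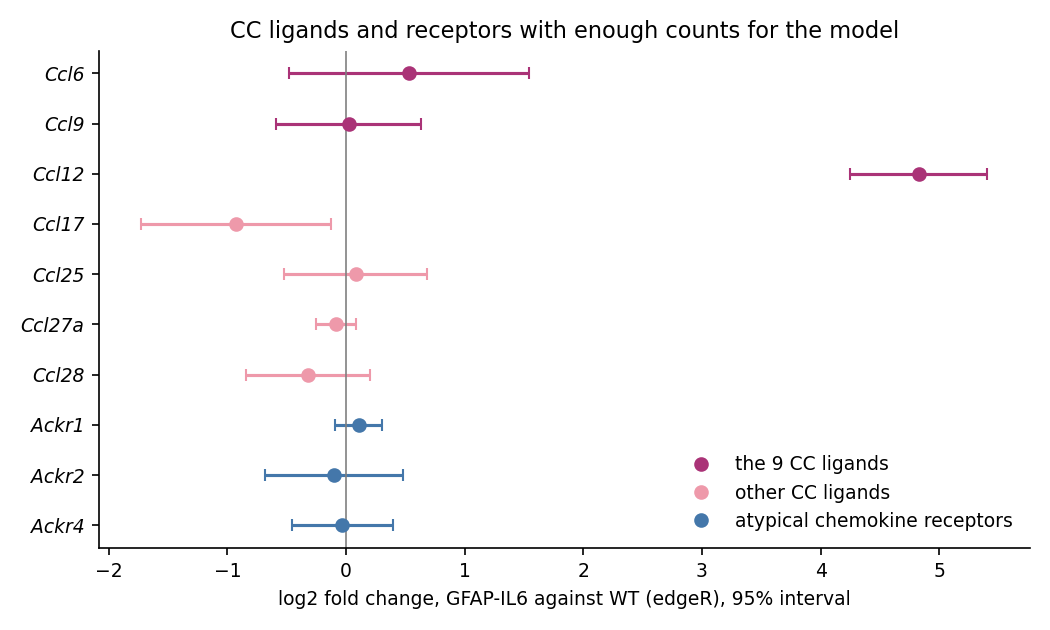
Log2 fold change of GFAP-IL6 against WT by edgeR (horizontal axis) with its 95% interval, for the CC ligands and atypical receptors that passed the filter on low counts. Ccl12 (4.83) lies to the right of 0 with its whole interval, and Ccl17 (-0.93), which was not called after adjustment, lies to the left.

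Of 18 cytokines and factors known to drive or restrain CC ligand genes, 14 passed the filter and 4 were called, all higher. One of the calls was Il6, which the transgene carries and which passed the filter through the GFAP-IL6 libraries alone. The median log2 fold change of the 14, Il6 included, was 0.44, against 0.00 over all genes tested, of which 2.65% were called as higher. Socs3, a feedback inhibitor induced by STAT3, had 28, 47 and 47 counts in the WT libraries against 112, 68 and 110 in those of GFAP-IL6 mice. Its log2 fold change by edgeR was 1.92 ± 0.19 (SE), at an adjusted p of 7.4e-05. Stat3 itself rose by 0.80 ± 0.11 (log2, SE), and Cebpd, a transcription factor of acute inflammation, by 1.49 ± 0.31, with adjusted p values by edgeR of 0.000858 and 0.0184. The counts of Il6 are those of the transgene and the endogenous gene together. Il1b and Tnf, cytokines that induce CC ligands through NF-kB, were low, with 15 and 6 counts over the WT libraries and 17 and 3 over the GFAP-IL6 libraries, and Ifng had 0 counts in all libraries.

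By the root mean square difference of log2(CPM + 0.5) over the 6 libraries, each gene centred on its WT mean, the profile of Ccl12 was closest to those of Fcgr4 (0.234), Fcgr2b (0.413), Scgb3a1 (0.418), C3 (0.464) and Hcar2 (0.490). As the libraries fall into 2 groups, this measure reflects mainly the size of the difference between genotypes on this scale, with 0.5 CPM added. The log2 fold changes of the 5 genes by edgeR lay between 3.33 (Fcgr2b) and 6.85 (Hcar2), against 4.83 for Ccl12. Fcgr4 and Fcgr2b are receptors for immunoglobulin G, C3 is the central complement component, and Hcar2 is a metabolite receptor. Fcgr4, for example, was at most 0.125 CPM in WT and 4.57, 5.28 and 5.69 CPM in GFAP-IL6.

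Markers of cell types that can express these ligands were given beside them. Of 11 microglial genes, all tested, 7 were called, all higher (median log2 fold change 0.81), with the smallest adjusted p for Itgam, Csf1r, Trem2 and Tmem119. Over all genes tested 2.65% were called as higher, and the median log2 fold change was -0.004. The log2 fold changes of P2ry12 (-0.27) and Gpr34 (-0.22) were below 0, and neither gene was called. The summed level of the 11 genes was 324 to 393 CPM in WT and 578 to 697 CPM in GFAP-IL6, a ratio of means of 1.71. Ccl12 was 28.4-fold higher by edgeR, with means of 0.291 CPM in WT and 8.57 CPM in GFAP-IL6. Per 1000 CPM of these markers, Ccl12 was at 0.805, 0.759 and 0.823 CPM in WT and at 15.6, 13.2 and 12.3 CPM in GFAP-IL6, a ratio of means of 17.25. The part of the microglial markers in the levels of the ligands was not tested.

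Of 8 border macrophage genes 5 passed the filter, and by edgeR 0 were called (1 at an unadjusted p under 0.05, 0 by DESeq2). Their sum was 22.9 to 27.3 CPM in WT and 27.1 to 36.2 CPM in GFAP-IL6. None of 16 leukocyte genes passed the filter, and their sum was 1.04 to 1.25 CPM in WT and 1.70 to 3.23 CPM in GFAP-IL6. These sums rest on few reads, with at most 12 counts of any gene in a library. That gene was Itgal, with 6, 9 and 12 counts in the WT libraries against 8, 7 and 9 in those of GFAP-IL6 mice. Of the defining markers Cd3d had 0 counts in every library, Cd3e 0 in WT and 3, 1 and 2 in GFAP-IL6, Ly6c2 at most 1 and S100a8 at most 4. The part of leukocytes in the counts of Ccl5 and Ccr2 was not tested.

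Astrocyte genes summed to 4466 to 5676 CPM in WT and 5457 to 6613 in GFAP-IL6, with 1 of 8 called, Gfap, which was higher. Endothelial genes summed to 131 to 153 and 217 to 250 CPM, with 4 of 8 called (Flt1, Cldn5, Esam and Pecam1), all higher. Among all genes tested the share called as higher was 2.65%. The sums of fibroblast and meningeal genes (83.4 to 106 CPM in WT, 81.5 to 120 in GFAP-IL6), neuronal genes (10621 to 11751 and 10230 to 11313) and oligodendrocyte genes (3333 to 6168 and 3368 to 5258) overlapped between groups. By edgeR 0 of 6, 0 of 8 and 0 of 8 of these were called, with 0, 4 and 0 at an unadjusted p under 0.05 and 0 by DESeq2 in each. Without overlap, 4 of the 8 neuronal genes were lower in GFAP-IL6 (Snap25, Gad1, Gad2 and Stmn2, named after their values were seen), with log2 fold changes between -0.25 and -0.17. By the same rule 9.68% of genes with any count were lower. Choroid plexus genes had 0 of 4 called by edgeR, with 3 at an unadjusted p under 0.05 and 0 by DESeq2.

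**Figure D5:**
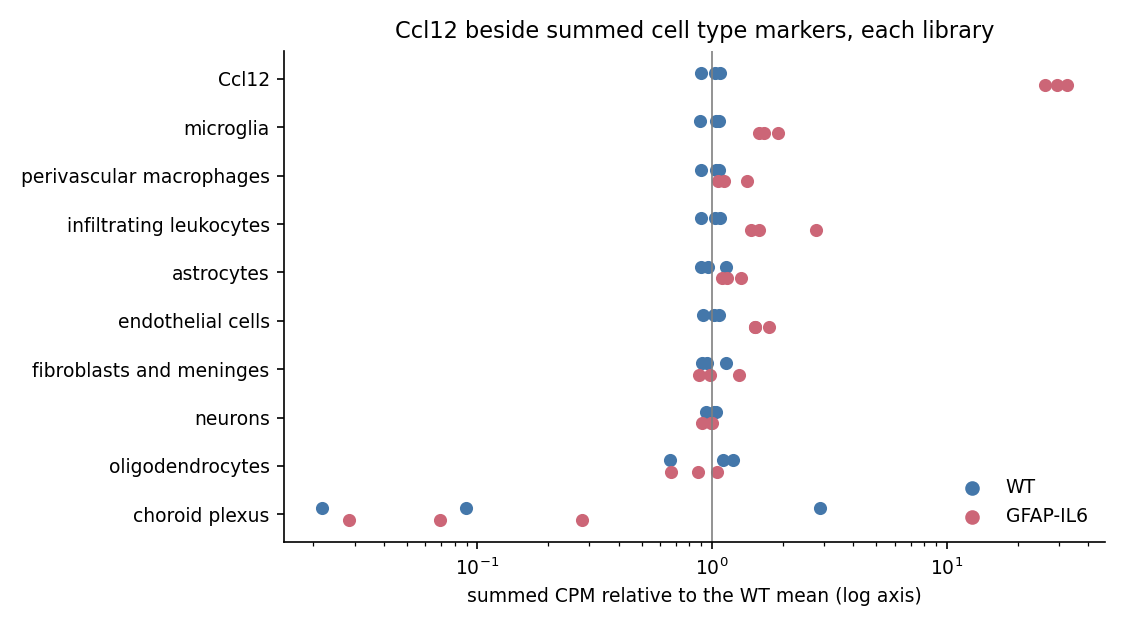
Level of Ccl12 and summed level of each list of cell type markers in each library, relative to the mean of the WT libraries (horizontal log axis), WT in blue and GFAP-IL6 in red. Microglial, leukocyte and endothelial markers were higher in GFAP-IL6 without overlap, with ratios of means of 1.71, 1.94 and 1.597. The leukocyte sum was at most 3.23 CPM in any library, and none of its 16 genes passed the filter on low counts. Ccl12 was 28.4-fold higher by edgeR, and choroid plexus markers were high in 1 WT library.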

How the data were processed

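The authors made TruSeq mRNA libraries, aligned reads to mm10 with STAR 2.4 and counted them over GENCODE vM6 genes with featureCounts, as their methods state, and deposited raw counts per gene with gene lengths. The strand setting is not given in the sources used here. The processing notes name hg19, but the identifiers are those of mouse genes. Groups and replicate numbers came from sample titles.

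Counts were tested with edgeR 4.0.16 (R 4.3.3): TMM scaling, filterByExpr, quasi-likelihood F-test on genotype alone, Benjamini-Hochberg adjustment over 15341 genes, called at an adjusted p under 0.05. DESeq2 1.42.0 (the tool of the study), limma-voom (limma 3.58.1), other scalings and filters, thinning, a replicate block and leaving out each library were alternatives. The fit was tested on simulated counts. CPM are TMM-scaled. Low genes were compared by exact two-sided permutation tests and exact intervals of count ratios. These intervals pool the reads of a group and leave out the spread between mice. Every pair of libraries differed by more than sampling noise (chi-square per degree of freedom of at least 2.23). Positions came from GENCODE M21 (GRCm38), which held 32593 of the 33000 identifiers, and promoters from RefSeq; 5 of 9 ligands matched there. Proteins were not used here.

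The ligands and gene lists were chosen with earlier results of these data known. Named were all 9 ligands, each other tested CC ligand, up to 4 called genes with the smallest adjusted p in each other list, and the 5 genes most like Ccl12, which had both the smallest adjusted p and the highest mean TPM. Receptors and leukocyte markers below the filter were named after their counts were seen. Some genes of these lists are not reported here.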

Additional observations from a re-analysis of the deposited data

How the results depend on the processing

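The call of Ccl12 and its direction were the same in all 14 alternatives, and Ccl6 was past the threshold in none. The number of ligands called was 3 without the low-count filter (Ccl12, Ccl8 and Ccl5). Of these, Ccl8 had 0 counts in each WT library and Ccl5 had 0, 2 and 0. Between 1 and 2 ligands were called when a library was left out, the second being Ccl8, which then passed the filter. The log2 fold change of Ccl9 was -0.0875 after thinning to the smallest library and between -0.12 and 0.21 when a library was left out. Over all genes, 439 of 15341 tested were called, 1154 of 22621 tested without the filter, 560 with DESeq2 and 282 without GFAP-IL6 replicate 2. Leaving out a library gave between 187 calls (without GFAP-IL6 replicate 3) and 1061 (without WT replicate 1). The cause of these differences was not tested. With the replicate number as a block 750 genes were called, 438 of them shared, and no call among the ligands changed. Deviations of libraries with the same number correlated at 0.11, 0.02 and 0.04 across genes, so the numbers do not show a pairing. At these depths 6 of the 9 ligands had too few counts for the model.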
